A study of Arabidopsis thaliana with 2 samples.

Results

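REF6 (RELATIVE OF EARLY FLOWERING 6, AT3G48430) is a nuclear gene on chromosome 3 of Arabidopsis thaliana. All rows of the 5 deposited splicing event tables that map to it were taken, and there was 1 such row among 343 listed events in 281 genes. It lies in the table of alternative 3' splice sites, which holds 50 events in 47 genes. The gene was chosen by its difference in splice site reads between the genotypes, and the tables hold only events that the authors called (the largest adjusted p is 0.0491). Its read counts are therefore given as a description, without a test.

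RNA came from cotyledons, the seed leaves, of the lefko1 mutant and of wild type (Col_cot in the tables). Both carry the Col-0 background and grew on sucrose-containing MS medium under long days. There was 1 sample of each genotype, with 3 sets of read counts per event. The sample title writes lefko2 where the protocol and tables write lefko1, the source label names seeds, and neither the mutated gene nor the plants' age at harvest is given in the sources used here. What the 3 sets are (plants, libraries or runs) is not labelled either, so SDs and SEs below reflect only the spread between sets. The SEs treat the 3 sets as independent, which the labels do not show. The tables hold splicing events and no expression levels, so the tissue could not be checked against marker genes.

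REF6 encodes a Jumonji demethylase that removes methyl groups from lysine 27 of histone H3, the mark that Polycomb complexes place on silenced genes. Its JmjN and JmjC domains form the catalytic part near the amino terminus, and zinc fingers at the carboxyl terminus recognise DNA and bring the enzyme to its targets. In Arabidopsis it is known for its effects on flowering time, through the repressor FLC, and on brassinosteroid responses together with its close relative ELF6. An alternative 3' splice site moves the start of an exon, so a shift that is no multiple of 3 changes the reading frame downstream.

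The event concerns intron 6 of 7, between exon 6 (17937997 to 17938488) and exon 7 (17938586 to 17938968), on the plus strand of chromosome 3 in TAIR10.1. The whole of the intron lies within coding sequence. With the upstream, annotated site the intron spans 17938489 to 17938585 and is 97 nt long. With the downstream site it ends 10 nt later, at 17938595, and is 107 nt long. Both annotated REF6 transcripts use the upstream site and 0 use the downstream one. The other introns of REF6 range from 70 to 199 nt, and none of them appears in any of the 5 tables. The intron is shown first, since both 3' sites share its donor, with 20 bases of exon 6 before it and 30 bases after its annotated end (chr3:17938469-17938615). Capitals mark the first 2 intron bases and the last 2 at each 3' site. The RefSeq genome sequence of TAIR10.1 was the source.
Intron 6 of REF6: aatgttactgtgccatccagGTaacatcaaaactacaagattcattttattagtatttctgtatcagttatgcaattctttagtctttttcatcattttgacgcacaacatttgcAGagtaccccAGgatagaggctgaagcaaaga

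Joining exons 6 and 7 gives a different message for each site, and the 15 bases on either side of each junction show how. In the upstream form, capitals mark the 10 bases that the downstream site leaves out. In the downstream form, capitals mark a stop codon in the reading frame that comes from exon 6.
Upstream site joined: tactgtgccatccagAGTACCCCAGgatag
Downstream site joined: tactgtgccatccaggaTAGaggctgaagc

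In wild type nearly every read was counted for the annotated site. Reads counted for the upstream site (inclusion counts) numbered 51, 40 and 53 in the wild-type sets. Those for the downstream site (skipping counts) numbered 1, 0 and 0. Whether inclusion counts hold only reads across a junction is not given. Unspliced reads over the bases between the sites can therefore not be excluded from them. In the mutant the order was turned round, with 6, 1 and 5 upstream and 77, 82 and 84 downstream reads. The share of the upstream site was thus 98.1%, 100% and 100% in the wild-type sets and 7.23%, 1.20% and 5.62% in the mutant sets. The ranges of the genotypes did not overlap. This alone does not set REF6 apart, since it was also the case in 91.8% of all 343 events and in 92% of the 50 alternative 3' splice site events. The median size of change was 20.4 points over all events.

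The mean share of the upstream site was 99.4% ± 1.11 (SD, 3 sets) in wild type and 4.68% ± 3.12 in the mutant. Mutant minus wild type was -94.7 points (SE 1.91). On the log2 odds scale, with 0.5 added to each count, the difference was -10.49. Over summed reads, 1 of 145 wild-type reads used the downstream site, a share of 0.690% with an exact (Clopper-Pearson) 95% interval of 0.0175% to 3.78%. In the mutant it was 243 of 255 reads, or 95.3% (91.9% to 97.5%). In wild type the downstream site thus rests on 1 counted read, and whether that read shows use of the site was not tested. The 2 wild-type sets with 0 reads for it allow shares of up to 7.5% and 5.66% when a count of 0 is taken to allow 3 reads, and their exact upper limits are 8.81% and 6.72%. Reads were still counted for the upstream site in each mutant set, 12 in all, which is 4.71% of the mutant's reads (exact 95% interval 2.45% to 8.08%). Whether these reads were spliced at that site cannot be told, because the counting rule is not known. These intervals and limits cover counting error only. The authors' deposited table gives an adjusted p of 0 for REF6, as for 5 of the 343 events, and that value is what placed it in the list.

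**Figure D1:**
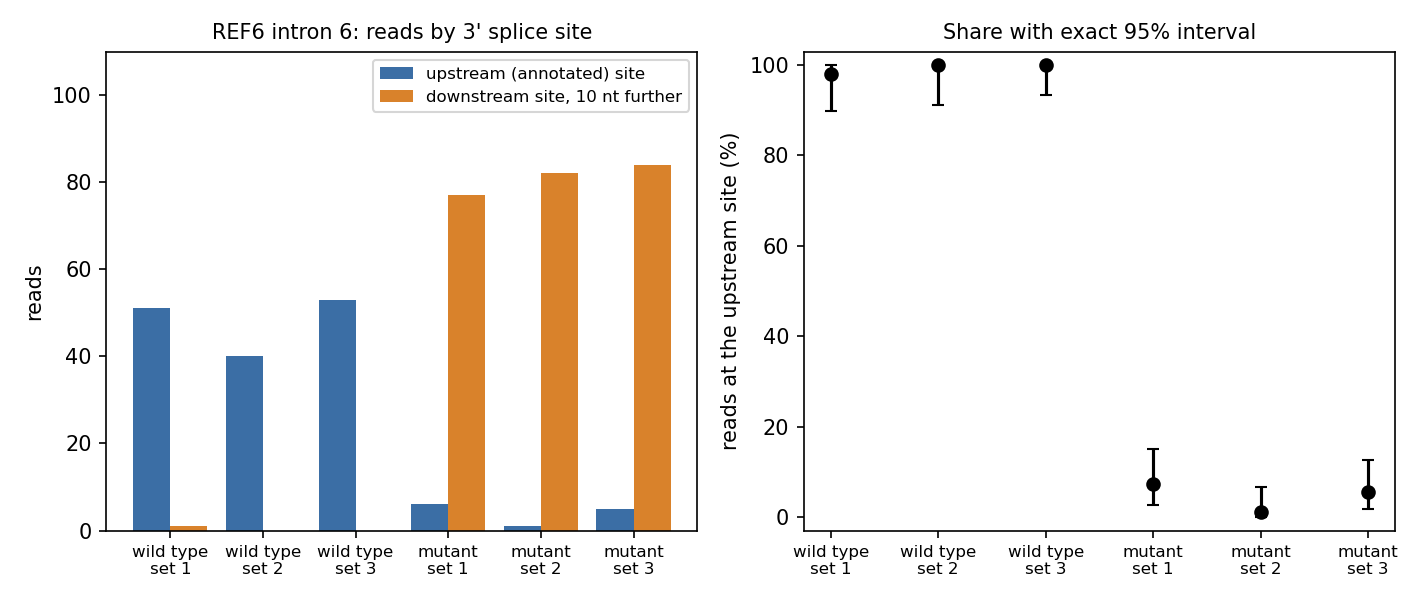
Reads at both 3' splice sites of REF6 intron 6 in each count set (left, blue bars upstream site, orange bars downstream site), and the percentage of reads at the upstream site with its exact 95% interval (right). The wild-type sets hold 40 to 53 upstream reads and at most 1 downstream read, and the mutant sets hold 77 to 84 downstream and 1 to 6 upstream reads.

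The number of reads behind the event was low next to the better-covered events of its class. REF6 had 40 to 53 reads per set in wild type and 83 to 89 in the mutant. Over the 34 alternative 3' splice site events with at least 20 reads in every set, the median per set was 433.5 to 511.5. The mutant's 255 reads were 1.76 times the 145 of wild type. Whole-library totals were not used here, so this ratio is no measure of the level of REF6 mRNA. Over the 34 alternative 3' splice site events in which no set had fewer than 20 reads, the same ratio had a median of 1.51 and ran from 0.322 to 4.74, and 12 events had a higher ratio than REF6. In whole cotyledons, a share of reads does not tell a change in each cell from a change in some cells, and fewer cells of a type cannot be told apart from less RNA per cell. Over all listed events the sets summed to 168946 to 187225 reads in wild type and 166819 to 178604 in the mutant.

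The sequence around the junctions is unique. The last 30 bases of exon 6, the first 30 of exon 7 and the 30 after the downstream site each occur once in the genome, and neither of the joined sequences printed above occurs in it. No other annotated gene overlaps REF6. The last 4 bases of exon 6 equal the last 4 of the 10 bases between the sites, so these shared letters allow the downstream junction in 5 places. The first intron base and the first base after the downstream site are both G, which allows a further place. Only 1 of all these places gives an intron that starts with GT and ends in AG, and it is the listed one.

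The 10 bases between the sites hold AG at bases 1 and 2 and again at bases 9 and 10, counted from the start of exon 7, and the listed downstream site ends at the latter. Among 126813 annotated 3' splice sites of nuclear protein-coding genes, 4.89% of exon starts have AG at bases 1 and 2, 9.14% at bases 9 and 10, and 0.486% at both places. An AG anywhere in the first 10 bases is found in 47.5%. Within the intron, the nearest AG before the annotated one starts 34 bases upstream of it. Each 3' site was scored by the summed log2 odds of its bases (15 intron bases and 1 exon base) against all annotated sites, whose median score is 7.20. The upstream site of REF6 scored 5.04, at percentile 22.3 of annotated sites, and the downstream site 3.67, at percentile 11.7. The AG at bases 1 and 2 scored -4.46, at percentile 0.205. The 5' splice site that both forms share scored 8.40, at percentile 79.5 of 126153 annotated 5' sites (3 exon and 6 intron bases). Of the 20 bases before the AG, 12 are pyrimidines at the upstream site and 11 at the downstream site, against a median of 13 at annotated sites. Both REF6 sites thus score below the median of annotated sites, the downstream one lower. Scores describe the reference sequence, and the genome of the mutant plants was not analysed here.

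The annotated REF6 protein of 1360 residues is read from 8 exons. Exon 6 ends 1 base into the codon of residue 765. Using the downstream site removes 10 bases, which leaves a remainder of 1 when divided by 3, and the frame changes at that codon. Translation of the reference with the downstream junction gave 764 unchanged residues, 1 new residue (glycine) and then the stop codon TAG at 17938598 to 17938600, which starts at base 3 of the shortened exon 7. The predicted product has 765 residues and lacks 596 of the 1360, or 43.8% of the protein. The stop lies 368 nt before the last exon junction, that of exons 7 and 8, with 1 exon after it. As background, plant mRNAs with a stop codon well before an exon junction can be degraded by nonsense-mediated decay. Whether REF6 mRNA of either form is degraded, and whether a protein is made from it, was not tested.

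The pattern of iron-binding residues of the JmjC domain (histidine, any residue, glutamate, and after 60 to 110 residues a histidine followed by any residue, glycine and an aromatic residue) was found once, at residues 246, 248 and 337, all of them before the frame change. The zinc finger pattern (cysteines spaced by 4 residues, a histidine 12 residues on, and a histidine or cysteine after another 3 to 5) was found 4 times. The matches span residues 1245 to 1268, 1268 to 1290, 1298 to 1320 and 1328 to 1352, and the first and second share a cysteine. All 4 lie beyond the frame change, the first beginning after 480 further residues. The predicted product of the downstream site would thus hold the JmjC residues and none of the 4 zinc finger matches. RefSeq also lists a shorter REF6 transcript of 5 exons, with a protein of 1001 residues that lacks the first 359 residues and with them the JmjC pattern. With the downstream site that protein would keep 405 residues, also followed by 1 new residue and the same stop.

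**Figure D2:**
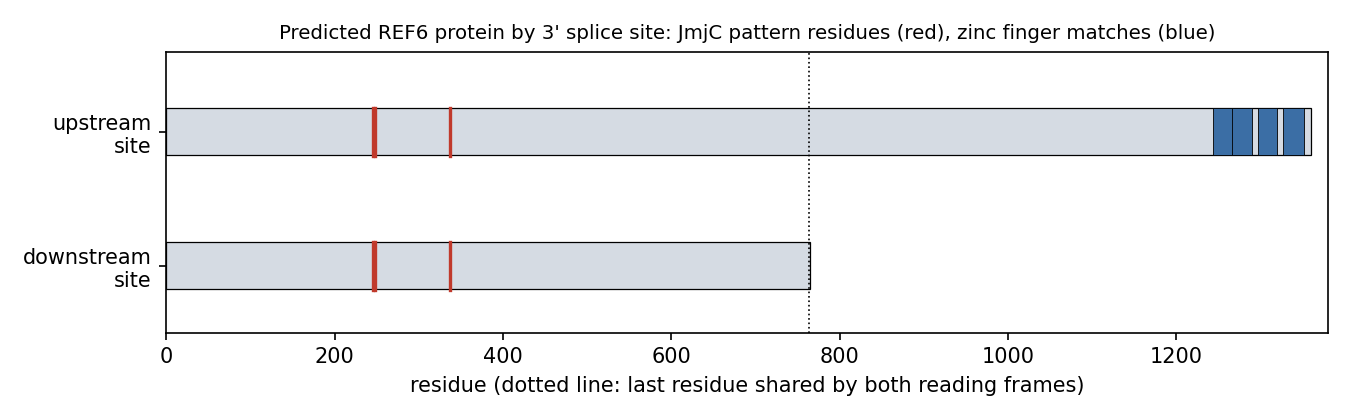
Predicted REF6 protein from the upstream site (1360 residues) and from the downstream site (765 residues), with residue number on the x axis. Red lines mark the 3 JmjC pattern residues, blue boxes the 4 zinc finger matches, and the dotted line residue 764, the last that both reading frames share. The fingers lie only on the longer bar.

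ELF6, the closest of the relatives compared, is 1340 residues long and has the same finger pattern 4 times. Alignments with REF6 (BLOSUM62) put no gap cost on unaligned ends. ELF6 was identical at 49.4% of 603 aligned residues up to the frame change and at 29.1% of 578 beyond it. ELF6 also has an exon junction at the position aligned with that of REF6 exons 6 and 7. JMJ13, a shorter demethylase of the same mark with 787 residues, aligned only with the part before the frame change (32.6% of 680 residues identical) and has 0 finger matches. Neither ELF6 nor JMJ13 was listed in any table, so their splicing in these samples is not known from these data.

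REF6 was the only listed gene among 49 genes of its pathway and family. Of 5 demethylases of histone H3 lysine 27 (REF6, ELF6, JMJ13, JMJ30 and JMJ32), 1 was listed. None was listed of 16 other JmjC genes such as IBM1 and JMJ14, of 17 Polycomb genes such as CLF and SWN, the methyltransferases that write the mark, and LHP1, which binds it, or of 6 genes of SWI/SNF chromatin remodelling such as BRM. BES1, a brassinosteroid transcription factor that binds REF6, and FLC, FT, SOC1 and CUC1, which REF6 is known to affect directly or indirectly, were not listed either. By comparison, 1.23% of 22245 nuclear protein-coding genes with an intron were listed. REF6 was itself chosen from the listed events, so its own place in the count was fixed in advance. The other 48 genes were not listed, which says little about them at so low a background share. A gene that is not listed may be unchanged or too thinly covered, which the tables do not separate. Changes in mRNA level of these genes are not in the tables.

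REF6 had the largest change among all 343 listed events, both in percentage points and in log2 odds. As REF6 was chosen with this known, the rank is a description. In the 245 events where no set had under 20 reads, the median change was 18.2 points in size. The next largest there, chosen after its value was seen, was in LDA, a gene of starch debranching, at 37.1 points. Among all events the next was in TGA4, a bZIP transcription factor gene, at 88.9 points, where the wild-type sets held 1, 3 and 1 reads and the mutant sets 2, 1 and 4. Going from over 90% to under 10%, or the reverse, was seen in 0.292% of listed events, which is REF6 alone.

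The plot of change against read number shows REF6 apart from other events of similar depth. A change of over 50 points across the 50% line was listed in 15 events (4.37% of all), and REF6 was the only one of them in which every set reached 20 reads (0.408% of the 245 events with that depth). AT2G03360 also crossed the line. Its change of -50 points lies on the limit of the written rule (at least 50 points), but it was not counted among the 15. The other 14 had between 1 and 6 reads in their thinnest set, and 8 to 126 reads over both genotypes, against 400 for REF6. They rose in 8 and fell in 6. Among them was the heat stress factor gene HSFA2, at 63.9% ± 12.7 on 21 wild-type reads and 8.33% ± 14.4 on only 7 mutant reads. AtRZ-1b, an RNA-binding protein gene, was at 33.8% ± 21.5 on 23 wild-type reads and 87.2% ± 11.8 on 35 mutant reads. SRD2, a gene needed for transcription of small nuclear RNAs, had 12, 5 and 2 retention reads and no spliced reads in the wild-type sets. The larger of the SDs over sets in wild type and mutant was 4.36 to 57.7 points in these 14 events and 3.12 in REF6. These events differ from REF6 in read depth, so the SDs do not show that splicing was steadier in REF6.

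**Figure D3:**
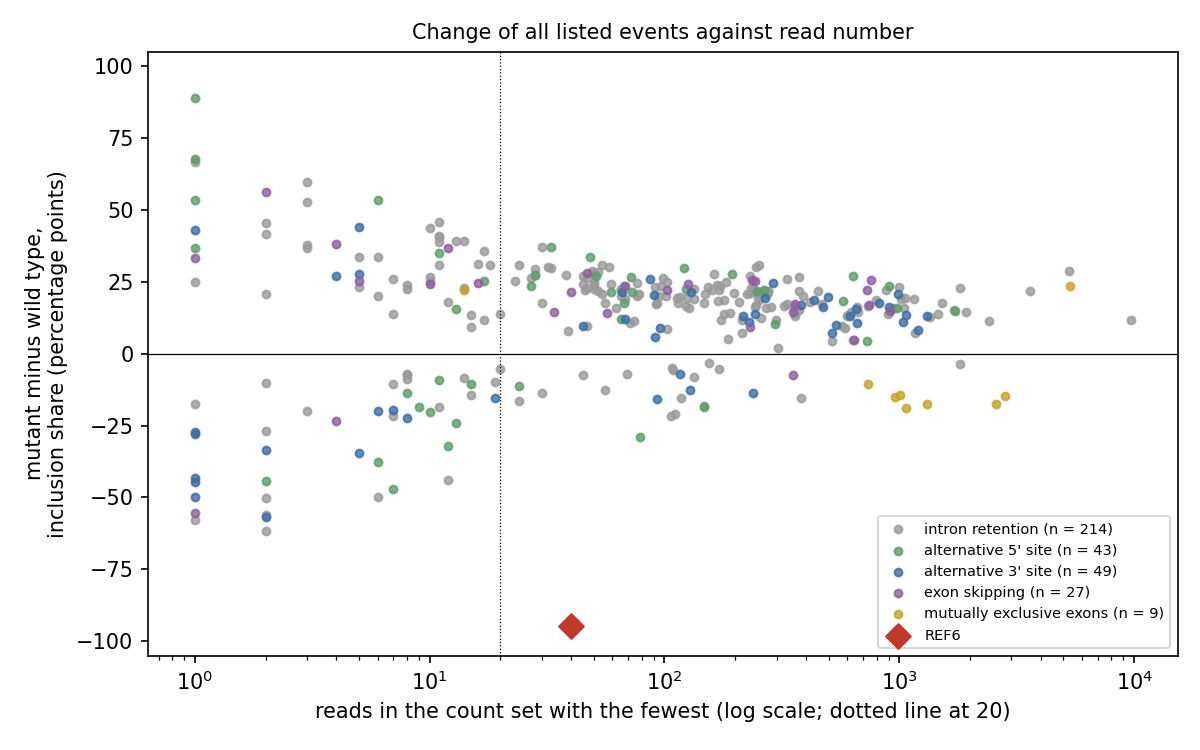
Mutant minus wild-type inclusion share (y axis, percentage points) against the reads in the thinnest of the 6 count sets (x axis, log scale) for all 343 listed events, coloured by class. REF6 (red diamond, 40 reads, -94.7 points) lies below all other events, and the remaining changes of over 50 points have 6 or fewer reads in a set.

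Within its own class, REF6 went against the majority direction. The longer exon comes from the upstream site, and its share was lower in the mutant in 34% of the 50 events and in 14.7% (5 events) of the 34 whose sets all reached 20 reads. The size of the change had a median of 13.6 points in those 34. Some of the rising events are not independent. PRP39, AT5G09880 and AT5G55100 are each listed more than once in the class, with the same counts for the shorter exon. Others, such as AT3G04500 and SR34a, share those counts with a retained intron listed for the same gene. Of these 34 events, REF6 had the lowest share of the longer exon in the mutant, and the next lowest, likewise picked on its value, was AT4G27700 at 22.3%. It also had the fewest reads in its thinnest set. Another 4 events of the 34, also picked on their values, started above 90% in wild type, and in the mutant they stood at 98.0% (AT5G06120), 93.0% (AT4G31405), 77.7% (AT1G15240) and 76.1% (GCP1).

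Of those falls GCP1, a glycoprotease gene with sites 4 nt apart, had 107, 85 and 108 reads for the longer exon and 5, 8 and 14 for the shorter in wild type. In the mutant it had 72, 80 and 83 against 21, 29 and 24, a difference of -15.7 points (SE 2.45). AT1G15240, with sites 7 nt apart, differed by -13.5 points, but its shorter exon had 78, 0 and 0 reads in the wild-type sets, which overlap the mutant sets. Both genes kept most of their reads on the longer exon in the mutant, where REF6 did not. Among the events of the class whose sets all reached 20 reads, the largest rises were those of AT3G18500 (25.9 points, SE 6.64), AT3G04500 (24.5 points, SE 3.62) and AT3G05350 (21.6 points, SE 3.73), and each of these had reads for both forms in every set of both genotypes.

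The sites of REF6 are close together for this class. The distance between sites ran from 3 to 804 nt over the 50 events, with a median of 131. In 19 events the sites were at most 20 nt apart, and the longer exon fell in 12 of these and rose in 7. With sites further apart it fell in 5 and rose in 26. The closer sites had fewer reads, with a median of 6 in the thinnest set against 290, and where all sets reached 20 reads 3 fell, REF6, GCP1 and AT1G15240, and 4 rose. With sites further apart and the same depth 2 fell and 25 rose. The part of read depth in this difference was not tested. The distance was a multiple of 3, which keeps the reading frame, in 19 of the 50 events, and in 6 of the 19 with close sites. REF6 belongs to the other 31.

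Another 5 events had sites 8 to 12 nt apart, and their sequences are given for comparison with REF6 (15 bases before and 15 after the upstream site, in the direction of transcription, with the last 2 intron bases of each site in capitals). REF6 is at chr3:17938571-17938600, HO3 at chr1:26228123-26228152, AT2G03360 at chr2:1023519-1023548 on the minus strand, PPD6 at chr3:20985292-20985321, AT5G08480 at chr5:2744403-2744432 and AT5G57790 at chr5:23412236-23412265 on the minus strand.
REF6: gcacaacatttgcAGagtaccccAGgatag
HO3: aaagtttacgatcAGttatgcAGgtatcta
AT2G03360: aaaaattgaaaaaAGtttcctctgtAGgta
PPD6: atctttgaaatctAGtctggttgcAGgaaa
AT5G08480: ctgcataaacggtAGttttgttgcAGgtca
AT5G57790: aatggtttttattAGctatatgacAGggga

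All 6 pairs of sites end in AG. PPD6, which encodes a PsbP domain protein of the thylakoid, is the only one of the 5 whose sets all reached 20 reads, and it moved the other way from REF6. Its longer exon had 112, 92 and 79 reads against 532, 505 and 448 in wild type and 140, 132 and 122 against 260, 281 and 260 in the mutant. Its share went from 15.9% ± 1.28 to 33.0% ± 1.76. The other 4 were listed with a lower share of the longer exon, on few reads. HO3, a heme oxygenase gene, had 3, 10 and 7 reads for the longer exon and 26, 15 and 14 for the shorter in wild type, and 0 against 6, 4 and 1 in the mutant. AT5G08480 had 4, 1 and 3 reads against 1, 1 and 0 in wild type, and 1, 1 and 1 against 4, 4 and 4 in the mutant. AT2G03360 and AT5G57790 had 0 to 3 wild-type reads for the longer exon in each set. In the mutant AT2G03360 had 0, 1 and 0 against 3, 0 and 4, and AT5G57790 had 0, 1 and 1 against 4, 1 and 4. The shares of the genotypes overlapped in both of these events. Among these 6 events REF6 thus has the direction of the mean change in the 4 thinly covered ones and not that of PPD6. For AT2G03360 and AT5G57790 that direction is uncertain because of the overlap.

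**Figure D4:**
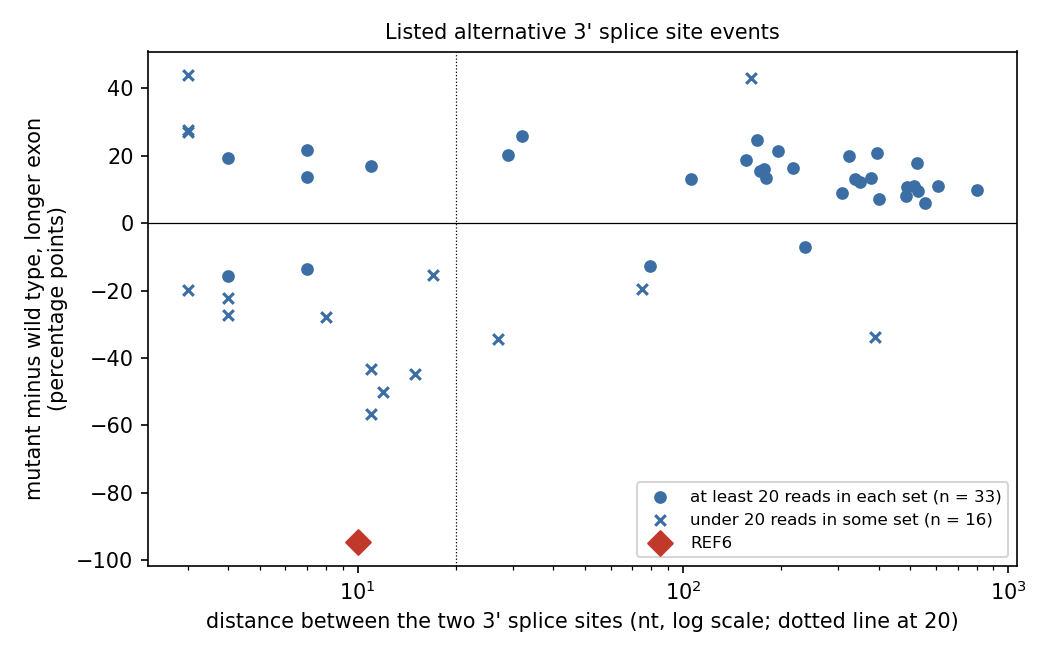
Mutant minus wild-type share of the longer exon (y axis, percentage points) against the distance between both 3' splice sites (x axis, nt, log scale) for the 50 listed alternative 3' splice site events. Circles are events whose sets all reached 20 reads, and crosses have fewer in some set. REF6 (red diamond, 10 nt) lies at -94.7 points, and the circles lie between -15.7 and 25.9.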

How the data were processed

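The submitters' processing notes name HISAT2 2.0.4 as a tool and TAIR10 as the build. Which program called the events, and how it counted reads, is not given in the sources used here. For this series 5 event tables were deposited by the authors with, per the file headers, counts of inclusion and skipping reads per genotype, a p-value and its adjusted value (FDR). A count cell has 3 numbers, treated here as 3 count sets. The planned design named 1 sample per genotype, and no test was made. No 2 sets of a genotype were alike: 2 to 7 of 343 events had identical counts in a pair of sets.

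Of 1038 exon entries, 852 matched an annotated mRNA exon when 1 was added to the start and 1 as given, so 1 was added. Gene identifiers and coordinates were read on RefSeq TAIR10.1. Shares are means over sets. Named events followed a written rule. It took REF6 and the 3 largest falls and rises of its class where every set reached 20 reads. It also took events crossing 50% by at least 50 points, and events with sites 10 nt apart, give or take 2. LDA, AT4G27700, AT5G06120, AT4G31405, PRP39, AT5G09880, AT5G55100 and SR34a fall outside it and were named after their values were seen. The gene, the lists and the rule were chosen with earlier results of these data known. Alignments used gap costs of 11 and 1, with free ends. The script that orders events was checked on simulated counts, which is no test of the rank of REF6. Python 3.11.15, NumPy 2.4.6, SciPy 1.17.1, Biopython 1.88 and Matplotlib 3.10.9 were used.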

Additional observations from a re-analysis of the deposited data

How the results depend on the processing

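The change of REF6 was -94.7 points as the mean of sets, -94.6 over summed reads, -96.3 with inclusion reads divided by 2 and -93.1 after adding 0.5 to each count. Without 1 count set at a time it was -95.9 to -92.9 points. REF6 ranked 1 in size of change in log2 odds, over all listed events, and with both choices together, which was added after seeing the data. The ranking limited to events with 50 reads in every set could not be made, since REF6 has a set of 40. The 17 falls of the longer exon became 9 of 37 events with an FDR of at most 0.01, 5 of 34 with at least 20 reads in each set, and 12 of 19 with sites at most 20 nt apart. The count of 1 listed gene among 49 was the same with an FDR of at most 0.01 and with at least 20 reads in each set. The downstream site's score, at percentile 11.7, was at 8.85 with 20 intron and 3 exon bases and at 10.5 among sites of listed genes. The residues before the frame change were 764, and 405 in the shorter transcript, which starts further downstream. No paired analysis was possible because the labels give 1 sample per genotype and no replicate numbers. Precision is limited by depth, with 40 reads in the thinnest set, and by 1 sample per genotype, which leaves the spread between plants unmeasured.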
